A study of Mus musculus with 4 samples.

Results

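The 9 genes described here encode receptors for the constant part of IgG antibodies (*Fcgr1*, *Fcgr2b*, *Fcgr3*, *Fcgr4*), the adaptors that signal for these and other myeloid receptors (*Fcer1g*, *Tyrobp*), the kinases next in line (*Syk*, *Lyn*) and an inhibitory receptor of macrophages (*Sirpa*). They were chosen by name, with earlier results of these data known, and are 9 of 10944 genes with a value in at least 1 library. RNA came from primary mammary tumors of female Foxp3+EGFP Balb/c mice, aged 8 weeks, in which EGFP marks Foxp3+ cells. Tumors had been started by injecting 10000000 cells of 4T1, a Balb/c mammary carcinoma line, into the mammary fat pad. The mice received Control SMO or LFPRLR SMO for 12 days at 100 pmoles/h/mouse. An SMO is an antisense oligomer that changes splicing, and LFPRLR SMO was directed at the long form of the prolactin receptor. For each treatment 1 library was made from whole tumor and 1 from tumor Tregs sorted by Foxp3, and each library pooled RNA of 6 mice. With 1 library per group, no ratio below has a replicate check, and none was tested.

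Antibodies bound to a target are read by Fc gamma receptors on macrophages, neutrophils and other leukocytes. The activating receptors have no signaling motif of their own in mice and rely on the gamma chain, the product of *Fcer1g*, whose tyrosine motif (ITAM) is phosphorylated by Src family kinases such as LYN and then recruits SYK. The receptor encoded by *Fcgr2b* instead carries an inhibitory motif (ITIM) that recruits phosphatases. DAP12, the product of *Tyrobp*, is an ITAM adaptor for receptors such as TREM2. SIRP alpha, the product of *Sirpa*, binds CD47 on other cells and restrains phagocytosis.

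The tyrosine motifs that these adaptors and the inhibitory receptor are known for lay, in whole or in large part, within the listed transcripts. Their coding sequences in the GENCODE M21 annotation (GRCm38, the assembly also called mm10) are shown because these bases tell an ITAM adaptor and an ITIM receptor apart. Capitals mark the tyrosine codons. The ITAM of *Fcer1g* lies at chr1:171229889-171230072, minus strand, and that of *Tyrobp* at chr7:30415670-30417382, plus strand, each split over 2 exons. The ITIM of *Fcgr2b* lies in a single exon at chr1:170961071-170961088, minus strand.
Fcer1g ITAM: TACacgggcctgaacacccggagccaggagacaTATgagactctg
Tyrobp ITAM: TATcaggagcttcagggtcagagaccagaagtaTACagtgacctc
Fcgr2b ITIM: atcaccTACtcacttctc
All 45 bases of the *Fcer1g* motif and all 18 bases of the *Fcgr2b* motif lay within listed transcripts of the gene in all libraries. For *Tyrobp* all 45 did so with LFPRLR SMO and in the tumor Treg values, and 43 with Control SMO, where the assembly broke within the motif. A place within a listed transcript does not show reads over the motif. In the tumor Treg values, read depth was listed as 0 for the last exon of *Tyrobp*, which holds most of its ITAM. It was also 0 for the last exon of both spliced *Fcgr2b* forms, which holds the ITIM. These motif bases are therefore not shown to be present there.

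Values are FPKM, which scales fragments by transcript length and library size, summed over the assembled transcripts of at least 300 bases placed in a gene. A gene that was assembled in several pieces has its FPKM counted once per piece. An exon-weighted value is therefore given beside the sum, in which each piece counts only in proportion to the share of the longest annotated transcript that its exon bases make up. Ratios are log2 of LFPRLR SMO over Control SMO with 0.1 added to each value. The files hold no read counts, and 1 FPKM stood for a median read depth of 1.88 with Control SMO, 1.75 with LFPRLR SMO and 0.947 in the tumor Treg values. *Prlr*, the targeted gene, had no listed transcript in any library, so its knockdown could not be checked. Whole tumor and tumor Treg values came from different programs (Cufflinks and StringTie) and were normalized separately, so they are set side by side only as a description.

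Both Treg labels hold the same values. All 4838 transcripts under the Control SMO label and all 4838 under the LFPRLR SMO label matched in exons, coverage, FPKM and TPM, and each header names a control alignment as its input. They were used as 1 set, for which no treatment ratio exists. The set also went against its cell type label. Of 16 T cell and Treg markers, *Foxp3*, *Cd4* and *Cd3e* among them, 0 were listed, while 17 of 18 markers of monocytes and macrophages were, with a summed FPKM of 489 beside 665 (Control SMO) and 442 (LFPRLR SMO) in whole tumor. A value in this set is therefore not shown to come from Tregs.

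In whole tumor, 2 of the 9 genes were lower with LFPRLR SMO by a factor of 2 or more, *Fcer1g* and *Fcgr1*, and 0 were higher. Over all 10436 genes that reached an FPKM of 1 in either library, 16.6% were lower (1734 genes) and 18.5% were higher (1926 genes) by this factor. The median log2 ratio of the 9 genes was -0.26 beside -0.08 for all genes. With exon-weighted values 2 of the 9 were again lower, the same genes, beside 8.03% of 8831 genes, and the medians were -0.32 and -0.16. In bulk RNA, fewer cells of a type and less RNA per cell cannot be told apart.

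**Figure D1:**
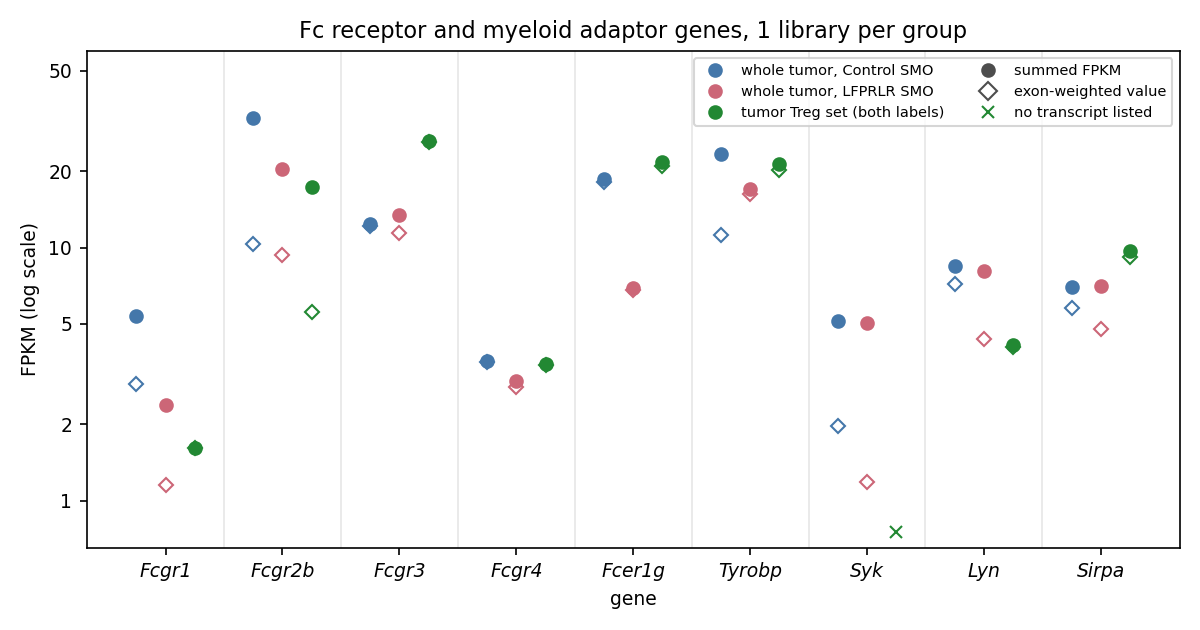
FPKM (log scale) of the 9 genes in whole tumor with Control SMO, whole tumor with LFPRLR SMO and the tumor Treg set that is the same under both labels. Filled circles are FPKM summed over the transcripts of a gene, open diamonds are exon-weighted values, the cross marks a gene with no listed transcript, and each point is 1 library. *Fcer1g* is at 6.93 with LFPRLR SMO, below 18.7 with Control SMO on the summed scale, while the *Tyrobp* points change order between the measures.

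*Fcer1g*, the ITAM adaptor of the activating Fc gamma receptors, had the ratio farthest from 0 of the 9 genes. It had an FPKM of 18.7 with Control SMO, 6.93 with LFPRLR SMO and 21.8 in the tumor Treg set. Of the whole tumor libraries the one with LFPRLR SMO was the low one. The log2 ratio was -1.42, which is 2.70-fold lower with LFPRLR SMO, and the exon-weighted ratio was -1.41, from 18.1 to 6.78. In each library the gene was assembled as 1 transcript of 5 exons and 4 annotated introns, of 661 bases with Control SMO, 810 bases with LFPRLR SMO and 658 bases in the Treg set. The additional bases with LFPRLR SMO lay ahead of the annotated gene start. *Fcer1g* lies on chromosome 1 from 171229572 to 171234365 on the minus strand, and 88.6% and 89.2% of its longest annotated transcript were covered with Control SMO and LFPRLR SMO.

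Mean read depth over the *Fcer1g* transcript was 27.0 with Control SMO against 9.87 with LFPRLR SMO. Cufflinks deposits a lower and an upper bound with each FPKM, and for *Fcer1g* these were 10.04 and 16.5 with Control SMO and 4.91 and 8.81 with LFPRLR SMO, so that the intervals did not overlap. The Control SMO FPKM lay above its own upper bound. This held for 14.8% of transcripts from 300 to under 1000 bases in that library and for 9.47% with LFPRLR SMO, so the bounds are not used as errors here. With the midpoint of the bounds in place of the FPKM, the log2 ratio of *Fcer1g* was -0.94, which no longer reaches a factor of 2. Under all 11 alternatives run it stayed below 0, from -1.44 to -0.94. Some of these could not change it, because the gene is 1 spliced transcript in each library. With no length limit, the most abundant transcript only, shared introns only and over covered bases, the ratio was again -1.42.

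*Tyrobp*, which encodes the adaptor DAP12, had an FPKM of 23.4 with Control SMO, 17.0 with LFPRLR SMO and 21.4 in the tumor Treg set. By these sums the LFPRLR SMO library was the lowest, with a log2 ratio of -0.46. The exon-weighted values were 11.2, 16.2 and 20.3, which turns the ratio to 0.53, so no direction can be given for *Tyrobp*. The difference between the measures lies in the assembly. With Control SMO the gene was broken into a transcript of 4 exons and 320 bases with an FPKM of 14.1 and a piece of 398 bases at the end of the gene with an FPKM of 9.28, while with LFPRLR SMO it was whole, with 5 exons and 569 bases. The mean read depth was 26.4 and 17.1 over the Control SMO pieces and 29.8 over the LFPRLR SMO transcript. The gene lies on chromosome 7 from 30413760 to 30417585 on the plus strand.

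The adaptors therefore stood in different proportions in the libraries. The FPKM of *Fcer1g* was 0.802 times that of *Tyrobp* with Control SMO, 0.407 times with LFPRLR SMO and 1.02 times in the tumor Treg set. Exon-weighted, these ratios were 1.62, 0.418 and 1.03. The Treg FPKM were averaged over all exons, also those with a listed read depth of 0. These were the first of *Fcer1g* and the first and last of *Tyrobp*. On the other exons depth was 23.0 to 52.0 for *Fcer1g* and 45.7 to 69.1 for *Tyrobp*. A ratio within a library does not depend on its scaling, and by both measures it was lowest with LFPRLR SMO. Against *Csf1r*, the receptor of the macrophage growth factor, *Fcer1g* stood at 1.51 with Control SMO, 0.883 with LFPRLR SMO and 1.52 in the Treg set.

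**Figure D2:**
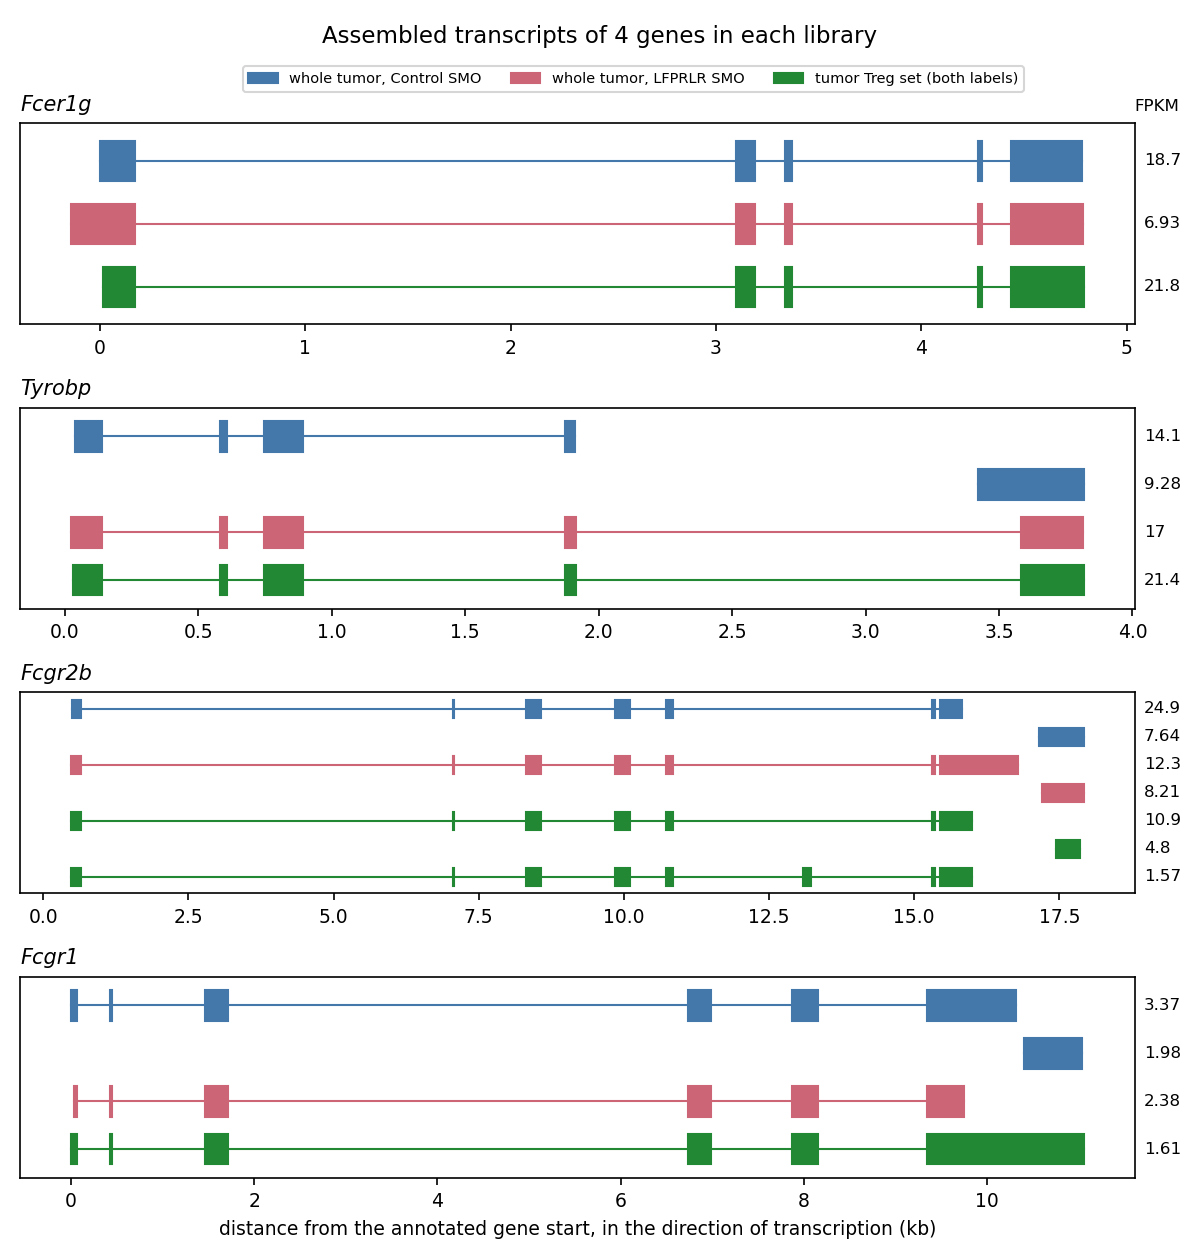
Assembled transcripts of *Fcer1g*, *Tyrobp*, *Fcgr2b* and *Fcgr1* by distance from the annotated gene start in kb (horizontal axis), with boxes for exons, lines for introns and the FPKM of each transcript at the right. Rows are whole tumor with Control SMO, whole tumor with LFPRLR SMO and the tumor Treg set. *Fcer1g* is 1 transcript in each library, whereas *Tyrobp* is in 2 pieces with Control SMO only, and *Fcgr2b* has a separate piece at its end in all of them.

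*Fcgr2b*, the inhibitory receptor, had the highest summed FPKM of the 9 genes in both whole tumor libraries, a rank it did not hold exon-weighted. It was at 32.5 with Control SMO, 20.5 with LFPRLR SMO and 17.3 in the tumor Treg set, and the log2 ratio in whole tumor was -0.66. Exon-weighted values were 10.4, 9.34 and 5.58, with a ratio of -0.15, and lay below those of *Fcgr3* and *Tyrobp* in all 3 sets of values. The spliced transcript of 7 exons was at 24.9 with Control SMO against 12.3 with LFPRLR SMO, where it was also longer, with 2202 bases against 1236. The piece at the end of the gene was at 7.64 and 8.21. The gene lies on chromosome 1 from 170958617 to 170976547 on the minus strand, and 12.5% of the 50 base windows of its longest coding transcript also occur in transcripts of other genes.

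The coding region of *Fcgr2b* has an optional exon of 141 bases at chr1:170963325-170963465 that inserts a stretch into the cytoplasmic tail. The form with the insert is known from B cells and the form without it from macrophages. The exon is shown in capitals between 12 bases of each neighboring exon, in the direction of the gene.
Fcgr2b optional exon: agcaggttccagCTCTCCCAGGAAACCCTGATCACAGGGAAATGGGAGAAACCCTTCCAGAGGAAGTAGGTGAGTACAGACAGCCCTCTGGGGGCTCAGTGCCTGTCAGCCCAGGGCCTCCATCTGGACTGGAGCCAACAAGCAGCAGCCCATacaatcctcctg
In whole tumor all spliced *Fcgr2b* transcripts skipped the exon, with Control SMO and with LFPRLR SMO. In the tumor Treg set a transcript with the exon was listed at an FPKM of 1.57 beside 10.9 for the form without it. The coverage of the optional exon itself was listed as 0 there, as was that of the outermost exons of both forms, so the form with the insert is not shown to be present. Of 6 B cell markers 0 were listed in any library.

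*Fcgr3*, an activating receptor, had an FPKM of 12.4 with Control SMO, 13.5 with LFPRLR SMO and 26.3 in the tumor Treg set. The whole tumor libraries were close to each other, with a log2 ratio of 0.12 and an exon-weighted ratio of -0.09. The gene lies on chromosome 1 from 171051174 to 171064935 on the minus strand. Of the 1298 windows of 50 bases in its longest coding transcript, 12.8% also occur in transcripts of *Fcgr2b*, so reads from this stretch could have been given to either gene.

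*Fcgr4*, an activating receptor of macrophages and neutrophils, was at 3.57 with Control SMO, 2.97 with LFPRLR SMO and 3.45 in the tumor Treg set. These values were close to each other, with a log2 ratio of -0.26 and an exon-weighted ratio of -0.32. It was assembled as 1 transcript of 5 exons in each library, which covered at least 94.6% of the annotated transcript, and it shared no window of 50 bases with another gene. *Fcgr4* lies on chromosome 1 from 171018920 to 171029761 on the plus strand.

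*Fcgr1*, the high affinity receptor, had an FPKM of 5.35 with Control SMO, 2.38 with LFPRLR SMO and 1.61 in the tumor Treg set. The Control SMO library was the highest and the log2 ratio was -1.14, with an exon-weighted ratio of -1.25. The Control SMO value was the sum of a spliced transcript at 3.37 and a piece from the end of the gene at 1.98, and only the spliced transcript was listed with LFPRLR SMO, where 48.4% of the annotated transcript was covered against 95.6%. Over the covered exon bases alone, the mean FPKM was 3.01 and 2.38, with a ratio of -0.33. Of 11 alternatives, all gave a ratio below 0 and 7 a factor of 2 or more. *Fcgr1* lies on chromosome 3 from 96282909 to 96293969 on the minus strand.

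Together the 4 receptor genes allow a comparison within each library. *Fcgr2b* made up 60.4% of their summed FPKM with Control SMO, 52.1% with LFPRLR SMO and 35.5% in the tumor Treg set, and *Fcgr3* made up 23.0%, 34.3% and 54.1%. The ratio of activating receptors to the inhibitory receptor was 0.655, 0.919 and 1.82. The whole tumor *Fcgr2b* transcripts, of 730 to 2202 bases, were shorter than the longest annotated one of 3544 bases, and with exon-weighted values the ratio was 1.79, 1.65 and 5.60. The order of the whole tumor libraries thus changes with the measure, while the Treg set had the highest ratio of activating to inhibitory receptor FPKM by both measures. Both use the same Treg FPKM, averaged also over exons with a listed read depth of 0. These included the first and last exons of *Fcgr1* and of both spliced *Fcgr2b* forms, but none of *Fcgr3*. On its other exons the main *Fcgr2b* form had depths of 12.8 to 27.4, beside 17.0 to 26.8 for the main *Fcgr3* transcript. What the exons without depth do to the ratio was not tested.

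**Figure D3:**
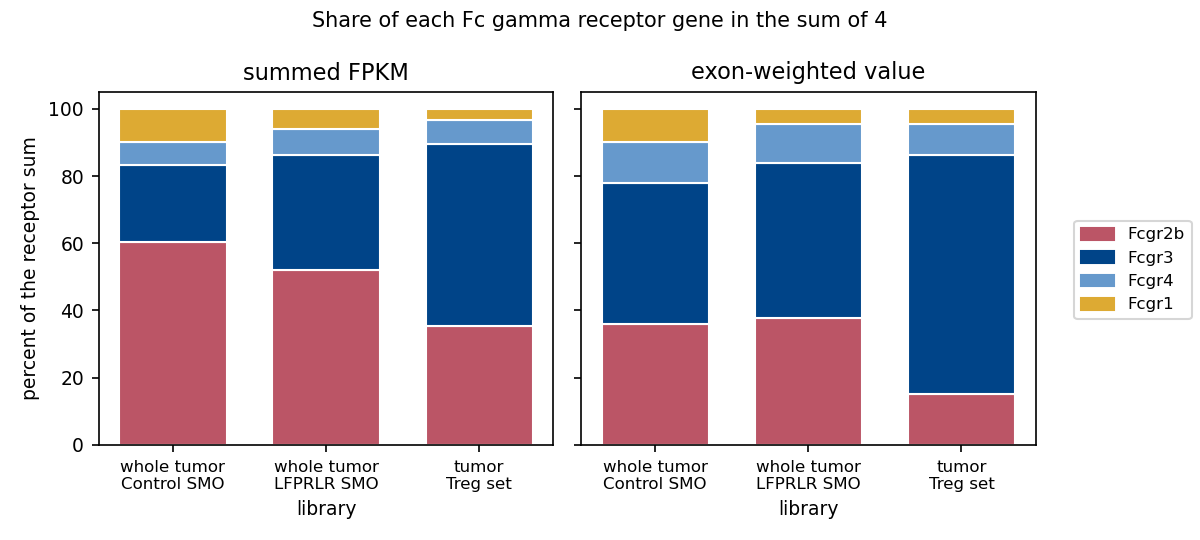
Percent of the summed level of the 4 Fc gamma receptor genes that each gene makes up (vertical axis) in whole tumor with Control SMO, whole tumor with LFPRLR SMO and the tumor Treg set, for summed FPKM (left) and exon-weighted values (right). Each bar is 1 library. The share of *Fcgr2b* is 60.4%, 52.1% and 35.5% on the left and 35.8%, 37.7% and 15.1% on the right.

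*Syk*, the kinase that binds phosphorylated ITAMs, had an FPKM of 5.13 with Control SMO against 5.06 with LFPRLR SMO, a log2 ratio of -0.02. The exon-weighted values were 1.97 and 1.18, with a ratio of -0.69. With Control SMO the gene was assembled as 5 transcripts, most of them overlapping, among them a transcript of 14 exons. With LFPRLR SMO it was in 2 separate pieces from the later part of the gene. Of its longest annotated transcript, 88.0% was covered with Control SMO and 63.8% with LFPRLR SMO. *Syk* was the only one of the 9 genes without a value in the tumor Treg set, in which *Fcer1g*, *Tyrobp* and *Fcgr3* were listed above an FPKM of 20. The lack of a listed transcript does not show that *Syk* RNA was absent. *Syk* lies on chromosome 13 from 52583173 to 52648792 on the plus strand.

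*Lyn*, the Src family kinase that phosphorylates both ITAMs and ITIMs, was at 8.49 with Control SMO, 8.06 with LFPRLR SMO and 4.11 in the tumor Treg set. The log2 ratio was -0.07 for summed FPKM and -0.71 for exon-weighted values, which were 7.19 and 4.35. With Control SMO the gene was assembled as 3 transcripts that start near the annotated gene start, and with LFPRLR SMO as a first part of 4 exons at 2.52 and a second part of 9 exons at 5.54. *Lyn* lies on chromosome 4 from 3678115 to 3813122 on the plus strand, and 21.8% of the 50 base windows of its longest coding transcript also occur in transcripts of *Gm11787* or *Gm26857*.

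*Sirpa*, the inhibitory receptor for CD47, was at 6.96 with Control SMO, 7.06 with LFPRLR SMO and 9.66 in the tumor Treg set. By sums the whole tumor libraries were near each other, with a log2 ratio of 0.02, and the exon-weighted ratio was -0.27. The LFPRLR SMO sum includes a piece of 1 exon at 1.87. Of 11 alternatives, 5 gave a ratio below 0, and they ran from -0.56 over covered bases to 0.17 with TPM. Transcripts that hold both exons of the immunoglobulin domains nearest the membrane made up 6.09 of the Control SMO value and 5.19 of the LFPRLR SMO value, and a short form without them was listed with Control SMO only, at 0.870. *Cd47*, its partner, was at 11.6 with Control SMO against 10.9 with LFPRLR SMO, or 11.3 and 10.7 exon-weighted, and at 15.6 in the Treg set, or 2.97 exon-weighted. *Sirpa* lies on chromosome 2 from 129592835 to 129632228 on the plus strand.

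An optional stretch of 12 coding bases of *Sirpa* at chr2:129627986-129627997 adds residues in the tail ahead of the tyrosine motifs. It is shown in capitals with 12 bases on each side.
Sirpa optional stretch: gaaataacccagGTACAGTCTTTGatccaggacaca
With Control SMO 0% of the FPKM across this point came from transcripts with the stretch, against 15.4% with LFPRLR SMO and 13.3% in the tumor Treg set. The transcript with the stretch was at an FPKM of 0.798 with LFPRLR SMO and 1.29 in the Treg set.

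**Figure D4:**
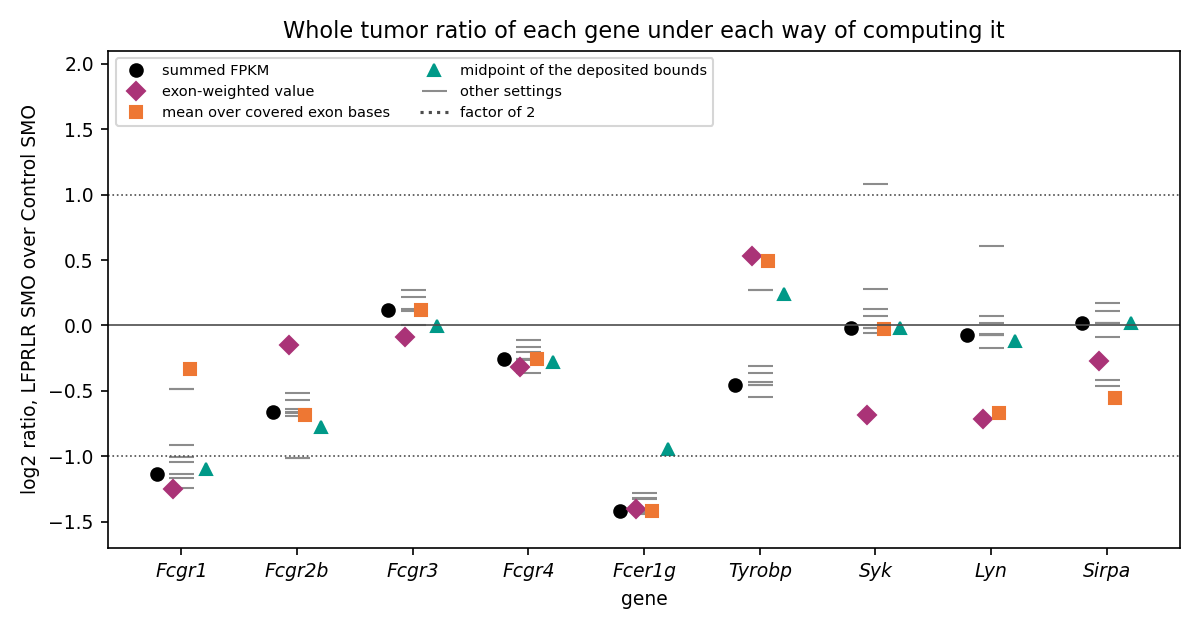
Log2 ratio of LFPRLR SMO over Control SMO in whole tumor (vertical axis) for each of the 9 genes, under the main measure and 11 alternatives. Black circles are summed FPKM, purple diamonds exon-weighted values, orange squares the mean over covered exon bases, green triangles the midpoint of the deposited bounds, gray ticks the other settings, and dotted lines a factor of 2. *Fcer1g* stays between -1.44 and -0.94, while *Fcgr3*, *Tyrobp*, *Syk*, *Lyn* and *Sirpa* lie on both sides of 0.

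By summed FPKM, the order with Control SMO was *Fcgr2b*, *Tyrobp*, *Fcer1g*, *Fcgr3*, *Lyn*, *Sirpa*, *Fcgr1*, *Syk* and *Fcgr4*. Exon-weighted it was *Fcer1g*, *Fcgr3*, *Tyrobp*, *Fcgr2b*, *Lyn*, *Sirpa*, *Fcgr4*, *Fcgr1* and *Syk*. Percentiles below are of summed FPKM. *Fcgr2b* stood at the 94.6 percentile of listed genes, *Tyrobp* at 92.3 and *Fcer1g* at 89.9, and *Fcgr4* at 32.0. With LFPRLR SMO *Fcer1g* was at the 61.5 percentile and *Tyrobp* at 90.0. In the tumor Treg set the highest were *Fcgr3* at 95.3, *Fcer1g* at 94.0 and *Tyrobp* at 93.8. With 1 library each, neighbors in these orders cannot be told apart. Of the 9 genes 8 had a value in the Treg set, while 27.9% of the 9415 genes that reached an FPKM of 1 in whole tumor with Control SMO did.

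Over the 3 sets of values, the genes nearest to *Fcer1g* in log2 FPKM, among 2195 protein-coding genes, were *Laptm5*, which encodes a lysosomal membrane protein of leukocytes, at 15.4, 8.17 and 22.9, *Pfkl*, a glycolytic enzyme, at 17.9, 6.48 and 16.1, and *Gm47283* at 17.1, 8.28 and 17.1. The genes nearest to the summed values of *Tyrobp*, whose order between the whole tumor libraries turns when exon-weighted, were *Prdx5*, a peroxiredoxin, at 23.1, 17.4 and 24.0, *Prrc2a* at 23.0, 21.0 and 20.5, and *Lgals3*, galectin 3, at 23.0, 13.4 and 23.8. Distances ran from 0.17 to 0.45 on the log2 scale, over 3 sets of values only.

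Markers of monocytes and macrophages, the cells in which most of the 9 genes are known, had a median log2 ratio of -0.55 (-0.58 exon-weighted). Of 18 markers 16 had a ratio below 0, beside 53.7% of all genes, and 2 were lower by a factor of 2, beside 16.6% of all genes, and 0 were higher. Exon-weighted, 0 of 17 were lower, beside 8.03% of all genes, and 1 was higher by this factor, *Cd163* at 1.25, with *Ccr2* at 0.98. *Apoe* was at 206 with Control SMO against 121 with LFPRLR SMO, and *Ctss* at 134 and 105. *Fcer1g*, at -1.42, lay below the range of the 17 markers with a value in both libraries, which ran from -1.02 (*C1qc*) to 0.43 (*Cd14*). *Ms4a7* was listed at 2.06 with Control SMO and had no value with LFPRLR SMO. The part of these markers in the ratios of the 9 genes was not tested.

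Markers of other cell types were listed in smaller numbers or had medians nearer 0 or above it. Of 13 neutrophil markers 4 were listed in whole tumor, with a median of 0.65 (0.30 exon-weighted), while *Ly6g*, *Ngp* and *Camp* had no value. The highest were *S100a9* at 21.4 and 31.6 and *Mmp9* at 33.2 and 55.8. The log2 ratio of *Mmp9* was 0.75 by sums but 0.16 exon-weighted. *S100a8*, at 12.7 and 12.4, was the 1 of the 4 with a ratio below 0. *Itgax*, a dendritic cell marker, was at 3.68 and 4.17, *Kit*, a mast cell marker, was at 0.816 with Control SMO and had no value with LFPRLR SMO, and *Eomes*, of natural killer cells, was at 1.02 and 1.007. *Ikzf2*, the only T cell or Treg marker with a value in whole tumor, was at 7.74 and 5.11. Of 8 general leukocyte markers 1 was lower and 2 were higher by a factor of 2, with a median of -0.36 (-0.28 exon-weighted). Over all genes, 16.6% were lower and 18.5% higher. *Laptm5* was at the values above and *Arhgdib* at 15.4 and 10.2, while *Ptprc* was at 5.67 and 13.7 and *Cyth4* at 3.55 and 12.7, log2 ratios of 1.26 and 1.81 that were 0.10 and -0.00045 exon-weighted. The median was 0.07 (-0.13 exon-weighted) for 9 listed epithelial markers, with *Krt18* at 124 and 112 and *Krt8* at 51.0 and 49.1. For 11 of fibroblasts and endothelium it was 0.15 (0.14 exon-weighted), with *Col3a1* at 278 and 361 and *Col1a2* at 224 and 127. The log2 ratio of *Col1a2* was -0.82 by sums and -0.20 exon-weighted, and that of *Col3a1* was 0.37 and 0.30. The part of all these markers in the ratios of the 9 genes was not tested.

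Downstream of the receptors, 26 of 29 kinases, adaptors and effectors passed the minimum FPKM of 1, of which 4 were lower and 4 higher by a factor of 2, with a median log2 ratio of -0.18. Exon-weighted, 2 were lower and 0 higher of 22, with a median of -0.36. Over all genes, 16.6% were lower and 18.5% higher by sums, and 8.03% were lower exon-weighted. The same shares stand beside the lists below. *Plcg2*, a phospholipase activated by SYK, was at 70.9 with Control SMO, 41.3 with LFPRLR SMO and 12.3 in the tumor Treg set. Its exon-weighted values were 16.8, 11.7 and 1.42. *Grb2*, an adaptor of receptor signaling, was at 16.6, 8.09 and 3.61, with a log2 ratio of -1.03 by sums and -0.83 exon-weighted. *Blnk*, a scaffold for SYK signaling, was at 2.69 with Control SMO and had no value with LFPRLR SMO.

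Of the genes that oppose ITAM signaling, 11 of 18 passed the minimum, with 3 lower and 2 higher by a factor of 2 and a median of -0.20 (-0.44 exon-weighted). Over all genes, 16.6% were lower and 18.5% higher. Exon-weighted, 2 were lower and 0 higher of 9 genes of the list. *Inppl1*, an inositol phosphatase, was at 11.1 with Control SMO against 4.37 with LFPRLR SMO, with a log2 ratio of -1.33 that was -0.30 exon-weighted. *Lilrb4a*, an ITIM receptor, was at 13.7, 28.2 and 14.3 in the tumor Treg set, a ratio of 1.03 that was 0.39 exon-weighted. *Pilra*, another ITIM receptor, was at 2.62 with Control SMO and had no value with LFPRLR SMO, and *Dok3*, an inhibitory adaptor, had no value with Control SMO and was at 2.53 with LFPRLR SMO.

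Receptors that signal through the products of *Fcer1g* or *Tyrobp* were a further list. Of 23 genes 6 passed the minimum, 0 were lower or higher by a factor of 2 and the median was -0.27 (-0.06 exon-weighted). *Clec4n*, which encodes dectin-2 and signals through the gamma chain, was at 8.38 with Control SMO, 5.73 with LFPRLR SMO and 15.7 in the tumor Treg set. *Sirpb1a*, a DAP12 partner of the SIRP family, was at 6.67, 3.88 and 2.80. *Pira2*, an activating receptor of myeloid cells, was at 1.84 and 1.07 in whole tumor.

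Other Fc receptors and partners of SIRP alpha gave 7 of 16 genes past the minimum, 0 lower or higher by a factor of 2 and a median of -0.27 (-0.30 exon-weighted). *Thbs1*, a matrix protein that binds CD47, was at 95.4 with Control SMO against 73.3 with LFPRLR SMO, and its exon-weighted ratio was 0.46 against -0.38 by sums. *Skap2*, an adaptor downstream of SIRP alpha, was at 33.4 and 27.6, or 4.07 and 3.41 exon-weighted. *Fcgrt*, the neonatal Fc receptor that recycles IgG, was at 6.71 and 4.31, and *Fcrls* at 3.32 and 2.02.

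Of 19 genes of phagocytosis and complement reception, 16 passed the minimum, 2 were lower and 1 higher by a factor of 2, and the median was 0.04, or -0.52 exon-weighted. Over all genes, 16.6% were lower and 18.5% higher. Exon-weighted, 1 was lower and 0 higher of 14 genes of the list. *Cyba*, a subunit of the phagocyte oxidase, was at 21.1 with Control SMO, 8.26 with LFPRLR SMO and 15.99 in the tumor Treg set, with a log2 ratio of -1.34 by both measures. *Mertk*, a receptor for apoptotic cells, was at 3.39 and 1.37, with ratios of -1.25 and -1.39. *Axl*, a kinase of the same family, was at 38.9 and 26.3.

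**Figure D5:**
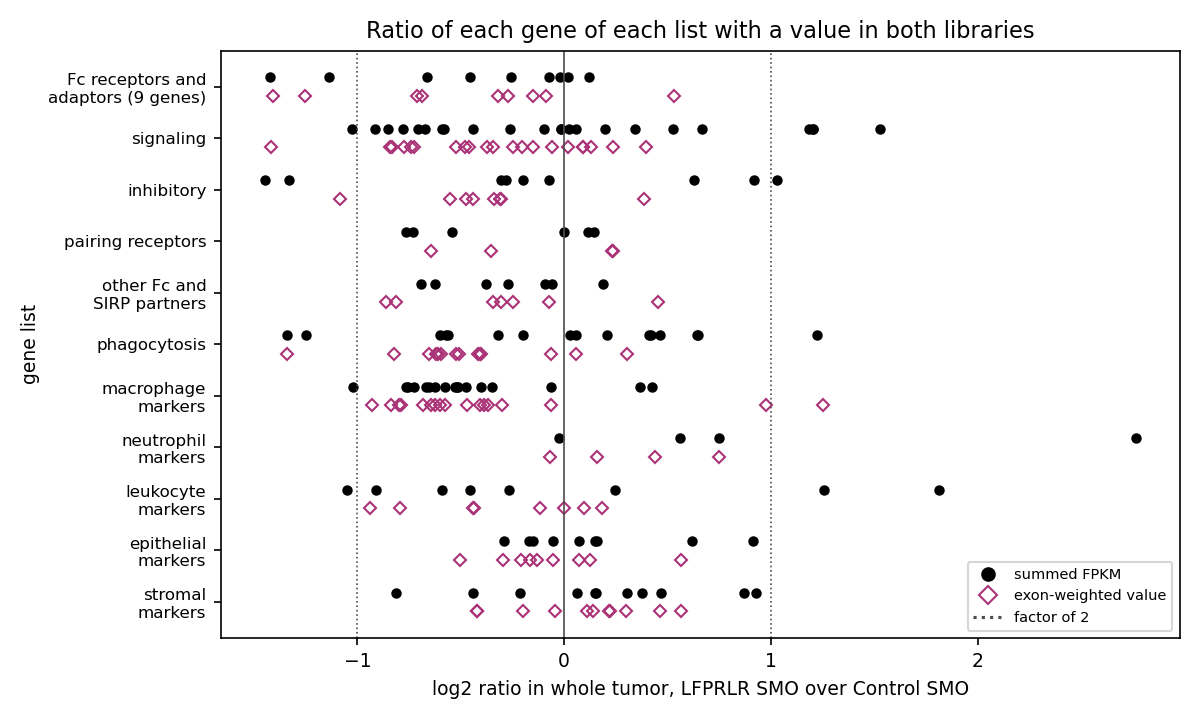
Log2 ratio of LFPRLR SMO over Control SMO in whole tumor (horizontal axis) for the genes of each list (vertical axis) that had a value in both libraries and at least 1 in either. Black points are summed FPKM, open purple diamonds are exon-weighted values, each point is 1 gene and dotted lines mark a factor of 2. Of 17 macrophage markers with summed FPKM in both libraries, *C1qc* at -1.02 is the lowest, and *Fcer1g* in the top row is at -1.42.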

How the data were processed

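For whole tumor the authors deposited transcripts assembled by Cufflinks on mm10, each with an FPKM, its bounds and a coverage (mean read depth). For tumor Tregs they deposited StringTie 1.2.3 transcripts with coverage, FPKM and TPM. The submitters' processing notes also name HISAT2 2.0.4 and Cuffdiff 2.0.2. The Cufflinks version, read length and read counts are not given in the sources used here, so depth is known only as coverage. Here, transcripts of at least 300 bases were placed in GENCODE M21 genes by their symbol where the file gives one, else by at least 1 shared intron or 50% of exon bases, and FPKM were summed per gene. Ratios used a pseudocount of 0.1, which understates changes of low genes. Counts used genes that reached an FPKM of 1 in either whole tumor library and a factor of 2. No test was possible with 1 library per group. Named were the 9 genes, in each pathway list the 2 highest with Control SMO and the 2 with the largest ratios, in each cell type list the 2 highest, and the 3 nearest genes of *Fcer1g* and *Tyrobp*. A gene that this rule names and a sequence are not reported here. Other genes are named after their values were seen. The members and lists were chosen with earlier results of these data known. Alternatives were pseudocounts of 0.01 and 1, no length limit, the most abundant transcript, exon-weighted values, shared introns only, TPM, centring on the median gene, FPKM of at least 5 or no minimum, and factors of 1.5 and 3. Coverage, means over covered bases and midpoints of the bounds were added after seeing the data. Scripts were tested on simulated data and used Python 3.11.15, numpy 2.4.6 and matplotlib 3.10.9.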

Additional observations from a re-analysis of the deposited data

Results flagged for a closer look

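Inside the introns of *Lyn*, 3 assembled transcripts of at least 300 bases with Control SMO and 18 with LFPRLR SMO were placed in no gene and enter no value of the report. They summed to 2232 and 20249 bases, with a median coverage of 5.70 and 3.24. Over the whole libraries, transcripts placed in no gene numbered 3718 and 11479. None of the other 8 genes held such a transcript in any library. The cause was not tested.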

How the results depend on the processing

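A ratio was taken as moved where an alternative changed it by more than a factor of 1.5, and as reversed where its sign also changed. The log2 ratio of *Tyrobp* reversed to 0.27 with the most abundant transcript or shared introns only, to 0.53 exon-weighted, to 0.49 over covered bases and to 0.24 with the midpoint of the bounds. With the most abundant transcript only, *Syk* reversed to 1.08 and *Lyn* to 0.61. Genes lower by a factor of 2 among the 9 numbered 1 with a pseudocount of 1, over covered bases and with the midpoint of the bounds, and 0 at a factor of 3. With shared introns or the most abundant transcript only, 2 were lower, but not the same genes. There *Fcer1g* was at -1.42 and *Fcgr2b* at -1.01, while *Fcgr1*, at -0.49, no longer reached the factor. With the most abundant transcript only, 1 was higher, *Syk*, while over all genes 1461 were lower and 1439 higher. The median of the 9 stayed within a factor of 1.5 of its value under all alternatives. Over all genes, 709 of 8831 were lower and 500 higher exon-weighted, and 797 were lower and 860 higher with an FPKM of at least 5. Of 10436 genes, 1076 were lower and 1248 higher at a factor of 3, and 1459 were lower with a pseudocount of 1. In addition, 1675 were lower and 1035 higher with shared introns only, and 2747 lower at a factor of 1.5. Over covered bases 1154 of 11714 genes were lower, and with the midpoint of the bounds 1587. The activating to inhibitory ratio with Control SMO reversed to 1.79 exon-weighted. With LFPRLR SMO it reversed to 1.53 with shared introns or the most abundant transcript only and to 1.65 exon-weighted, and in the tumor Treg set it rose to 5.60 exon-weighted. The exon-weighted value and the mean over covered bases do not count the pieces of a broken gene once each. Other causes of these changes were not tested. Centring shifted ratios by the median gene, at -0.09. No paired analysis was possible because each group is 1 library.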
